A study of Homo sapiens with 4 samples.

Results

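The proteasome is the protease complex that degrades ubiquitin-tagged proteins, and its subunits and assembly factors were followed here as a family of genes in 2 cell lines, MDA-MB-231 and SUM159, under mebendazole (MBZ). The members were all protein-coding genes whose symbol starts with PSMA to PSMG followed by a number, with PSMC3IP taken by the same rule. There were 49 such genes among the 58735 genes of the count table. They comprised 7 subunits of the 20S alpha ring, 4 structural and 3 constitutive catalytic subunits of the beta ring, 3 catalytic subunits of the immunoproteasome, 6 ATPases, 3 other base subunits and 8 lid subunits of the 19S particle, 5 activators and regulators, 7 assembly factors, and PSMA8 and PSMB11, which are known from testis and thymus. PSMC3IP is a cofactor of meiotic recombination that carries the name of the ATPase it was found to bind, and it is no part of the proteasome.

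MDA-MB-231 and SUM159 are human triple-negative breast cancer (TNBC) cell lines, that is, lines from tumors that lack the estrogen and progesterone receptors and HER2 amplification. MBZ is a benzimidazole anthelmintic that binds tubulin. Each line was treated with 1 μM MBZ or with DMSO vehicle for 72 h, and poly-A RNA was sequenced from 1 library for each of the 4 conditions. No culture was repeated, so a difference within a line has no replicate check, and the intervals below cover counting error only.

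Total counts were between 17143139 and 24897586 per library, and 3 counts corresponded to between 0.12 and 0.175 CPM, the usual count unit scaled to library size. PGR had 0 counts in all 4 libraries and ESR1 had between 0 and 18, while VIM, an intermediate filament of mesenchymal cells, was at 1101 to 3228 CPM and ERBB2, which encodes HER2, was at 57.95 to 108.3 CPM. CDH1, the epithelial cadherin, had 11 and 12 counts in MDA-MB-231 and 0 in both SUM159 libraries. The SUM159 DMSO library stood apart in the genes of G2 and mitosis. The median level of 20 such genes was 17.3 CPM there, against 77.2 CPM in SUM159 with MBZ, 158.4 CPM in MDA-MB-231 with DMSO and 83.75 CPM in MDA-MB-231 with MBZ. All 20 were at least 1.5-fold higher with MBZ in SUM159 (median log2 fold change 2.49), and 16 of 20 were at least 1.5-fold lower in MDA-MB-231 (median −0.93). Their part in the differences described next was not tested.

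The 20S core particle is a barrel of stacked rings, with the alpha subunits as its gates and the beta subunits lining the chamber where peptide bonds are cut. The 19S particle caps the barrel, recognizes ubiquitin, removes it, and unfolds the substrate with a ring of ATPases. Proteasome genes are known to be raised together by the transcription factor NFE2L1 when proteasome activity falls short, through antioxidant response elements in their promoters, whereas the immunoproteasome subunits are known as interferon-induced genes of antigen presentation.

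The 31 constitutive subunits of the 26S proteasome that fall under the symbol rule took up more of the library after MBZ, above all in SUM159 cells. Their share of all counts was 0.2804% in SUM159 with DMSO (95% Clopper-Pearson interval 0.278 to 0.2828) and 0.4652% with MBZ (0.4621 to 0.4683). In MDA-MB-231 it was 0.4967% with DMSO (0.4939 to 0.4995) and 0.544% with MBZ (0.5405 to 0.5475). The SUM159 DMSO library was thus the lowest of the 4. RNA from a whole culture cannot tell fewer cells in a given state from less RNA per cell.

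After TMM scaling of the 2 libraries of each line, the subunits were higher with MBZ in SUM159 and close to the median gene in MDA-MB-231. The median log2 fold change of the 31 subunits was 0.40 in SUM159 (range −0.22 to 0.91), beside −0.03 over all 15674 genes compared, and it was −0.09 in MDA-MB-231 (range −0.52 to 0.48), beside −0.02 over 15142 genes. In SUM159, 28 of the 31 had a counting interval above 0 (31.5% of all genes), 1 had an interval below 0 (37%) and 2 had an interval that held 0. In MDA-MB-231, 8 lay above 0 (30.5% of all genes), 16 below (35.3%) and 7 held 0. Intervals exclude 0 more often in genes with many reads. Of genes that averaged 500 counts or more, 2082 of 6562 lay above 0 in SUM159 and 3297 below. In MDA-MB-231, 2006 of 7129 such genes lay above 0 and 3837 below, a share near that of the 16 subunits. The SD of the 31 log2 fold changes was 0.29 in SUM159 and 0.27 in MDA-MB-231, beside 0.73 and 0.52 over all genes that averaged 500 counts or more. Scaling by total counts moved the median of all genes to 0.27 in SUM159 and 0.25 in MDA-MB-231, and the median of the 31 subunits to 0.70 and 0.18. The direction in MDA-MB-231 therefore turned with the scaling. The distance of the subunits to the median gene, which a scaling cannot move, was 0.44 in SUM159 and −0.07 in MDA-MB-231. It depended on the genes compared, with 0.49 and 0.01 at a mean of at least 100 counts and 0.20 and −0.24 when every gene with a count was kept.

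Among the 49 members, 47 averaged 10 counts or more over the library pair of each line and were compared. PSMA8 had 0, 0, 2 and 0 counts and PSMB11 had 0, 1, 1 and 0 counts, at or under the floor of 3 counts, and no fold change is given for either. At a fold change of 1.5, 11 of 47 members were higher in SUM159 and 0 were lower, beside 21.5% and 21.7% of all genes. In MDA-MB-231, 0 members were higher and 0 lower, beside 18.3% and 15.8% of all genes. By the counting interval, 36 members were higher and 8 lower in SUM159 (31.5% and 37% of all genes), and MDA-MB-231 had 11 higher and 22 lower (30.5% and 35.3% of all genes). Of genes that averaged 500 counts or more, 3837 of 7129 were lower in MDA-MB-231, a share not below that of the members. With total counts as the scale, 30 members were at least 1.5-fold higher in SUM159 (32.8% of all genes under that scale), 5 in MDA-MB-231 (29.1%) and 4 in both (11.8%), and 35 of 47 members lay above 0 in MDA-MB-231 in place of 20, and 42 in place of 38 in SUM159.

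**Figure D1:**
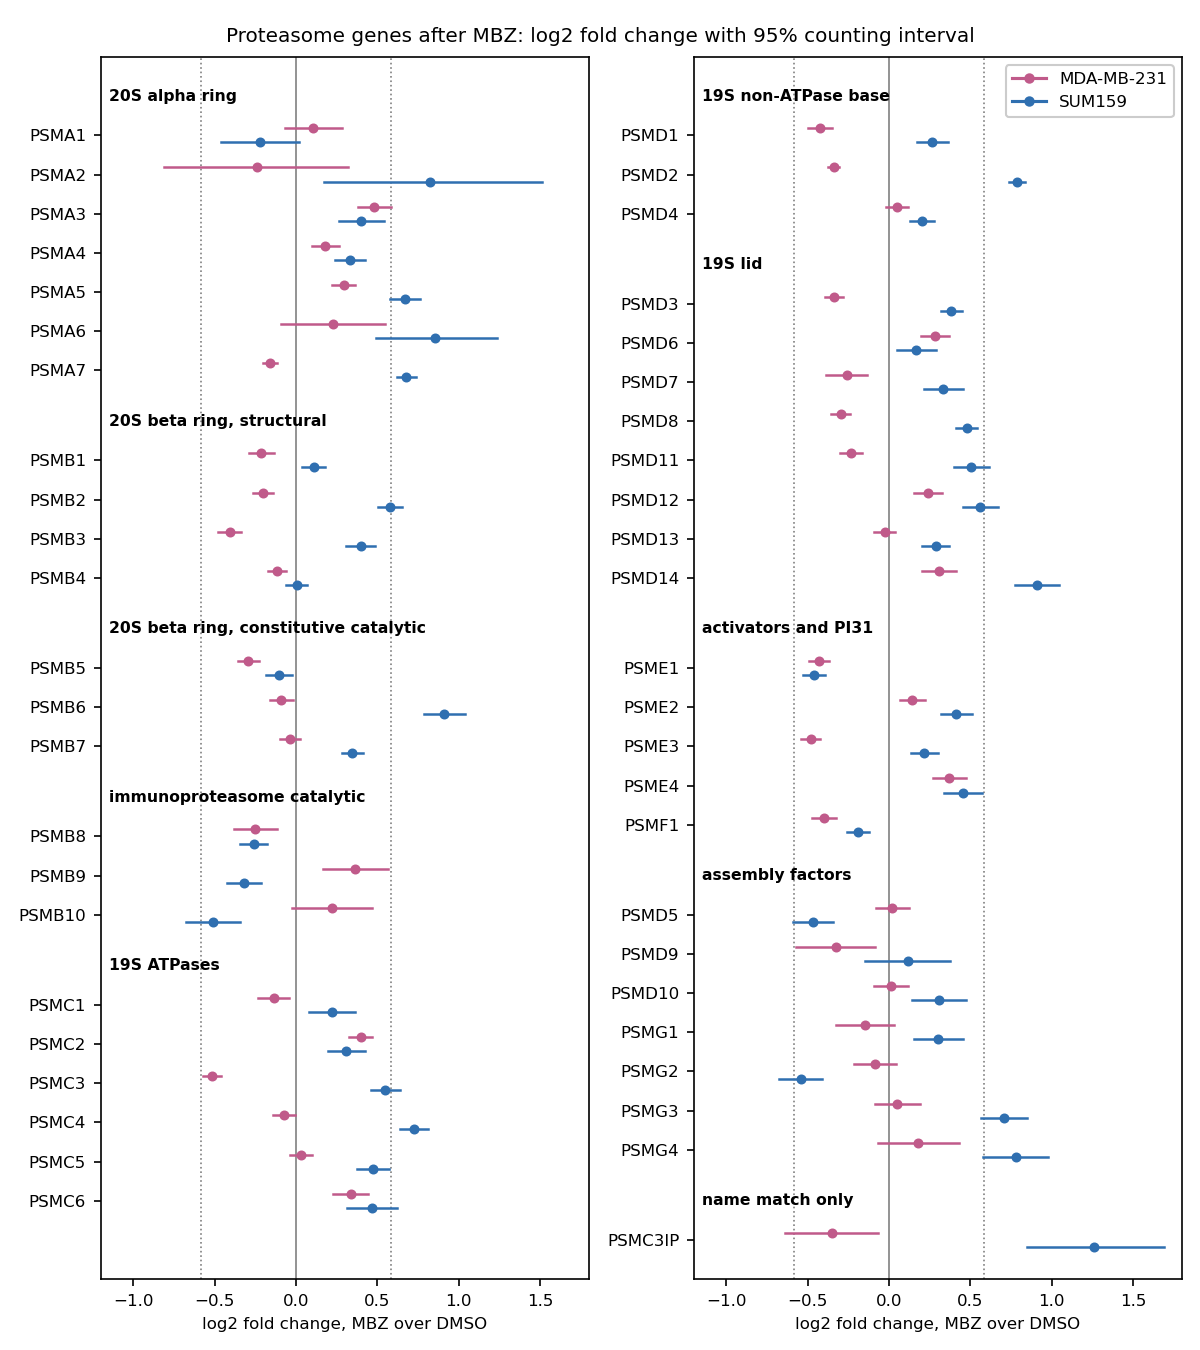
Log2 fold change of MBZ over DMSO for the 47 members compared, by group, in MDA-MB-231 (pink) and SUM159 (blue), with 1 library per condition. Points are fold changes after TMM scaling within the line, bars are 95% counting intervals, the solid line marks 0 and the dotted lines mark 1.5-fold; 11 members lie past the upper dotted line in SUM159 and none does in MDA-MB-231.

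The promoters of the members were searched for the letters of the antioxidant response element, TGACNNNGC, on both strands, from 250 bases before to 50 bases after each RefSeq start (GRCh38.p14). Of 43 members with a window, 15 held the letters (34.9%), against 4384 of 27305 genes (16.1%) and 4687 of 35116 windows (13.3%) in the whole table. A match is a run of letters and no measure of binding. The 7 of 17 matches with no annotated exon beneath them are printed because they belong to members on both sides of 0 in SUM159, with the letters of the element in capitals and each sequence on the strand of its gene.
PSMB3, chr17:38752617-38752665, plus strand, 104 bases before the start: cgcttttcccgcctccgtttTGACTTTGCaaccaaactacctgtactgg
PSMD3, chr17:39980750-39980798, plus strand, 37 bases before the start: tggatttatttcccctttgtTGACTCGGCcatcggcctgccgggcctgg
PSMD12, chr17:67366714-67366762, minus strand, 165 bases before the start: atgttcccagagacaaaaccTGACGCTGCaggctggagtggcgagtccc
PSMG1, chr21:39183606-39183654, minus strand, 183 bases before the start: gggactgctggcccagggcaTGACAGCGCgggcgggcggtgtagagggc
PSMD9, chr12:121888668-121888716, plus strand, 102 bases before the start: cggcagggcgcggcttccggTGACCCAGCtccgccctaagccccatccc
PSME1, chr14:24136088-24136136, plus strand, 86 bases before the start: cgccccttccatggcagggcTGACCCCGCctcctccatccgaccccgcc
PSMB9, chr6:32854024-32854072, plus strand, 148 bases before the start: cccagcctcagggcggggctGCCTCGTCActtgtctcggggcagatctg
In PSMB9 the element reads on the opposite strand, and the window lies within an intron of longer annotated PSMB9 transcripts. The other 6 windows lie outside annotated genes. The median log2 fold change of the 15 members with the letters was 0.33 for SUM159 and −0.07 for MDA-MB-231, and the 26 compared members whose windows lacked them had 0.37 and −0.12. PSMA7, PSMB1, PSMB6, PSMB7, PSMD4 and PSMG3 had no window and enter neither set. Of these, PSMA7, PSMB6 and PSMG3 were at least 1.5-fold higher in SUM159. Members with the element lay on both sides of 0 in SUM159, from −0.54 (PSMG2) to 0.73 (PSMC4).

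In the alpha ring, whose subunits form the gate through which substrates enter, the median log2 fold change was 0.67 in SUM159 and 0.18 in MDA-MB-231. In the following sentences, 4 values in a row are CPM after TMM scaling over the library pair of each line and are ordered as MDA-MB-231 DMSO, MDA-MB-231 MBZ, SUM159 DMSO and SUM159 MBZ. PSMA7, the alpha4 subunit at chr20:62136733-62143440 (GENCODE 44 on GRCh38, as for all gene positions here), was at 428.5, 383.6, 209.5 and 335.5 CPM, so that the SUM159 DMSO library was the lowest and MBZ brought SUM159 toward the level of MDA-MB-231. Its log2 fold change was 0.68 in SUM159 (0.62 to 0.74) and −0.16 in MDA-MB-231 (−0.20 to −0.12). PSMA5, the alpha5 subunit, was at 136.8, 167.7, 86.9 and 138.5 CPM and was higher with MBZ in both lines, by 0.67 in SUM159 (0.58 to 0.76) and 0.29 in MDA-MB-231 (0.22 to 0.37) on the log2 scale. PSMA3 had the highest fold change of the ring in MDA-MB-231, with levels of 62.3, 87.0, 41.8 and 55.2 CPM, and had 0.48 (0.38 to 0.59) in MDA-MB-231 and 0.40 (0.27 to 0.54) in SUM159 as log2 fold changes. PSMA4 had 0.33 (0.24 to 0.42) in SUM159 and 0.18 (0.10 to 0.26) in MDA-MB-231, again higher with MBZ in both lines.

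The other alpha genes called or at an end of the ring's range rested on few reads. PSMA2 had 67, 47, 29 and 64 counts, with a log2 fold change of 0.82 in SUM159 (0.17 to 1.51) and −0.24 in MDA-MB-231 (−0.81 to 0.32). PSMA6 had 169, 164, 89 and 201 counts, with 0.86 in SUM159 (0.49 to 1.24) and 0.23 in MDA-MB-231 (−0.09 to 0.55). PSMA1 had 558, 498, 279 and 298 counts and had the lowest fold change of the ring in SUM159, at −0.22 (−0.46 to 0.02). These genes share exons on the same strand with annotated readthrough genes, over the whole canonical transcript of PSMA2, 81.4% of PSMA6 and 67.0% of PSMA1, and the counting mode leaves out reads that fall in exons of 2 genes. PSMB10 (56.1%) and PSMD9 (28.8%) have such an overlap too. Without these 5 genes, 9 members were at least 1.5-fold higher in SUM159 and 0 were lower, and the median over the other 28 constitutive subunits was 0.40 in SUM159 and −0.10 in MDA-MB-231.

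The levels per transcript length showed the same 3 alpha genes at the bottom of the core particle. In MDA-MB-231 with DMSO the 14 constitutive 20S subunits ranged from 2.01 CPM per kb of canonical transcript (PSMA2) to 435 (PSMA7), with a median of 110. Without PSMA1, PSMA2 and PSMA6 the lowest was PSMA4 at 25, and the highest was 17.4 times the lowest in place of 216 times. In SUM159 with DMSO the other 11 ranged from 21.8 (PSMA4) to 242 (PSMB4), while the 3 genes were at 14.1 (PSMA1), 5.25 (PSMA6) and 1.22 (PSMA2). The 17 subunits of the 19S particle under the symbol rule ranged from 20.5 (PSMC1) to 265 (PSMD2) in MDA-MB-231 with DMSO and from 9.57 (PSMC1) to 123 (PSMD8) in SUM159 with DMSO. The low ranks of PSMC1 and PSMA4 depend on their canonical lengths of 4390 and 4378 bases. Before division by length, PSMC1 was above PSMC6 (91.96 against 61.35 CPM) in MDA-MB-231 with DMSO. PSMA4 was likewise above PSMA3 there (112 against 62.27 CPM). PSMC1 shares 83.2% of its canonical transcript with the antisense gene NRDE2, and the strand setting of the counting is not given in the sources used here. The 44 annotated pseudogenes of the members held between 23 and 78 counts per library in all.

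**Figure D2:**
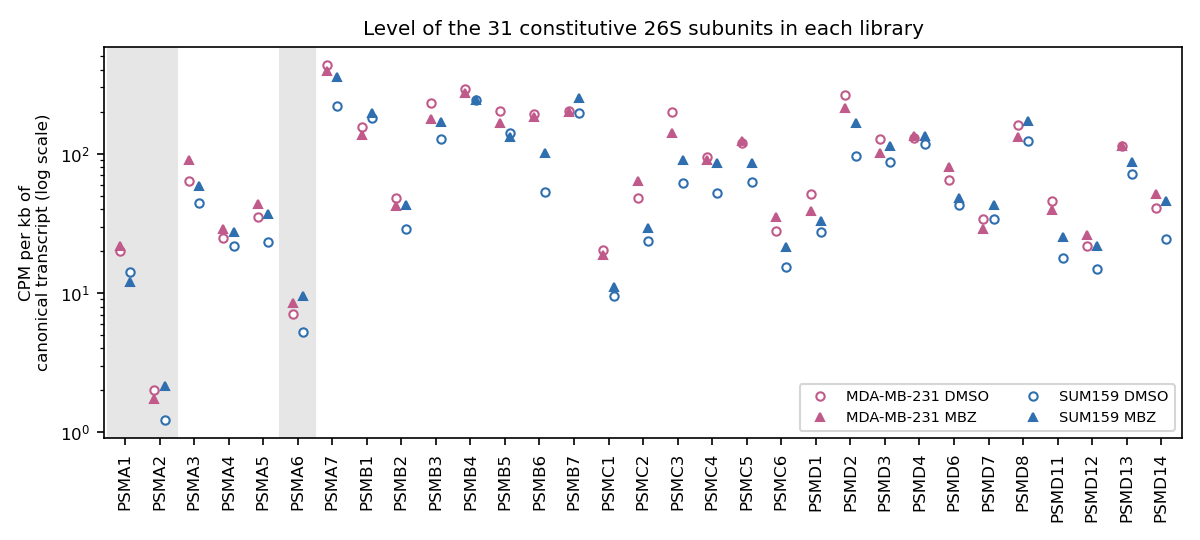
Level of the 31 constitutive 26S subunits as CPM per kb of canonical transcript, on a log scale, in each of the 4 libraries. Open circles are DMSO and filled triangles MBZ, pink is MDA-MB-231 and blue SUM159, and grey bands mark PSMA1, PSMA2 and PSMA6, whose exons overlap a readthrough gene and which are the lowest 20S subunits in every library.

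The 4 structural beta subunits, which hold no active site, were lower with MBZ in MDA-MB-231 by the counting interval after TMM scaling and at or above 0 in SUM159. With total counts as the scale PSMB3 was at −0.14 and PSMB4 at 0.15 in MDA-MB-231. PSMB3, the beta3 subunit at chr17:38752741-38764225, was at 180.3, 136.0, 95.8 and 126.3 CPM. It stood at a log2 fold change of −0.41 for MDA-MB-231 (−0.48 to −0.34), the lowest of the 4, and 0.40 in SUM159 (0.31 to 0.49), so that the levels of the lines were closer with MBZ than with DMSO. PSMB2 was at 217.2, 188.7, 125.4 and 187.3 CPM, and its log2 fold change of 0.58 in SUM159 (0.50 to 0.66) lay just under the 1.5-fold threshold of 0.585. PSMB4 had the highest fold change of the 4 in MDA-MB-231 and the lowest in SUM159, with levels of 274.5, 253.6, 218.6 and 219.3 CPM, at −0.11 in MDA-MB-231 (−0.17 to −0.06) and 0.01 in SUM159 (−0.06 to 0.07). PSMB1 had −0.21 (−0.29 to −0.14) and 0.11 (0.04 to 0.18).

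The 3 constitutive catalytic subunits had unlike fold changes in SUM159. PSMB6 (chr17:4796144-4798502), the beta1 subunit with caspase-like activity, was at 164.0, 154.2, 43.3 and 81.6 CPM. Its level in SUM159 with DMSO was the lowest of the 4 libraries, and its log2 fold change of 0.91 in SUM159 (0.79 to 1.04) was the highest of the 31 constitutive subunits, beside −0.09 in MDA-MB-231 (−0.16 to −0.02). PSMB7 (chr9:124353465-124415444), the beta2 subunit with trypsin-like activity, was at 203.4, 198.3, 190.1 and 241.6 CPM, with 0.35 in SUM159 (0.28 to 0.41) and −0.04 in MDA-MB-231 (−0.10 to 0.03). PSMB5 (chr14:23016543-23035230), the beta5 subunit with chymotrypsin-like activity and the main target of proteasome inhibitor drugs, was at 215.9, 176.4, 144.2 and 134.4 CPM. It was lower with MBZ in both lines, at −0.29 in MDA-MB-231 (−0.36 to −0.23) and −0.10 in SUM159 (−0.18 to −0.02) on the log2 scale, and at −0.03 and 0.20 with total counts as the scale.

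The immunoproteasome subunits PSMB8, PSMB9 and PSMB10 take the places of PSMB5, PSMB6 and PSMB7 in particles that cut peptides for antigen presentation. All 3 were lower with MBZ in SUM159 after TMM scaling, where the median constitutive subunit was higher. With total counts as the scale only PSMB10 was clearly lower, at −0.21, beside −0.02 for PSMB9 and 0.04 for PSMB8. PSMB9 (chr6:32844136-32859851) was at 17.9, 23.0, 88.0 and 70.4 CPM, with a log2 fold change of −0.32 in SUM159 (−0.43 to −0.22) and 0.37 in MDA-MB-231 (0.17 to 0.56). PSMB10 (chr16:67934506-67936864) was at 12.4, 14.5, 38.2 and 26.8 CPM, with −0.51 in SUM159 (−0.68 to −0.34) and 0.22 in MDA-MB-231 (−0.03 to 0.47). PSMB8 (chr6:32840717-32844679) was at 51.7, 43.5, 136.7 and 114.3 CPM and was lower in both lines, with −0.26 in SUM159 (−0.34 to −0.18) and −0.25 in MDA-MB-231 (−0.38 to −0.12). For all 3 genes both SUM159 libraries were above both MDA-MB-231 libraries. None passed 1.5-fold with MBZ.

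Ratios within a library need no scaling between libraries, and they showed a lower share of the immunoproteasome subunits with MBZ in SUM159. Such a share can fall through either gene of a pair. With DMSO and with MBZ in SUM159, PSMB9 had 1483 and 1478 reads, and PSMB6 had 730 and 1712. PSMB10 had 644 and 563 reads, and PSMB7 had 3204 and 5069. PSMB8 had 2304 and 2398 reads, and PSMB5 had 2431 and 2820. PSMB9 made up 67% of the reads of PSMB9 and PSMB6 in SUM159 with DMSO (65 to 69) and 46.3% with MBZ (44.6 to 48.1), a log2 change of the ratio of −1.24 (−1.40 to −1.07). In MDA-MB-231 the share was 9.83% with DMSO (8.94 to 10.8) and 13% with MBZ (11.9 to 14.2), a log2 change of 0.45 (0.24 to 0.67). PSMB10 made up 16.7% of the reads of PSMB10 and PSMB7 in SUM159 with DMSO (15.6 to 18) and 10% with MBZ (9.23 to 10.8), against 5.76% (5.12 to 6.44) and 6.8% (6.04 to 7.63) in MDA-MB-231. The log2 change of that ratio was −0.86 in SUM159 (−1.03 to −0.68) and 0.26 in MDA-MB-231 (0.003 to 0.51). PSMB8 made up 48.7% of the reads of PSMB8 and PSMB5 in SUM159 with DMSO (47.2 to 50.1) and 46% with MBZ (44.6 to 47.3), and 19.3% (18.3 to 20.3) and 19.8% (18.6 to 21) in MDA-MB-231. Its ratio moved by −0.16 in SUM159 (−0.27 to −0.04) and 0.04 in MDA-MB-231 (−0.10 to 0.19). Over the 3 pairs together, per transcript length, the immunoproteasome subunits made up 39.2% of the catalytic subunits in SUM159 with DMSO and 29.5% with MBZ, and 11.1% and 12% in MDA-MB-231.

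**Figure D3:**
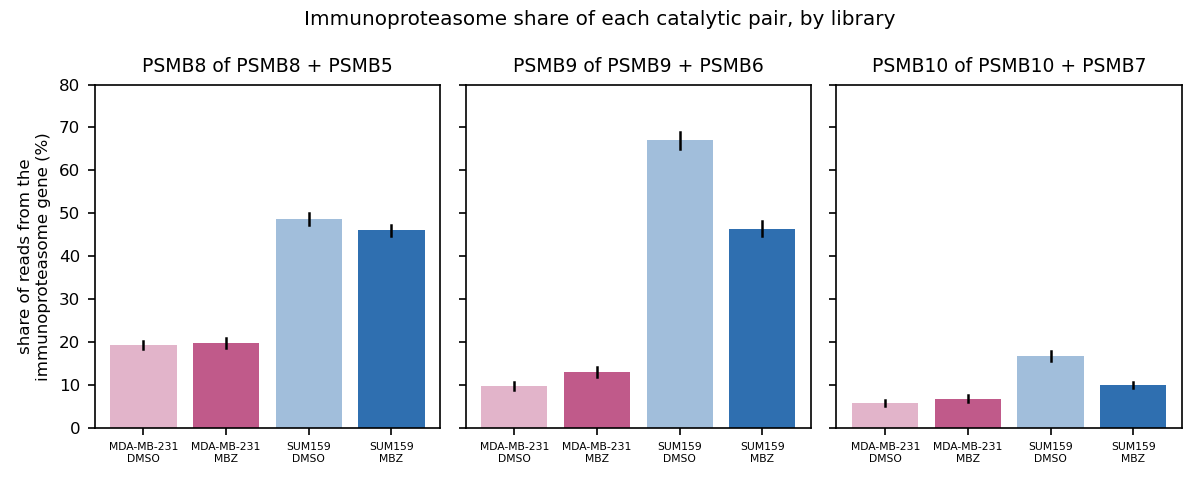
Share of reads from the immunoproteasome gene in each catalytic pair, in percent, in each of the 4 libraries; pale bars are DMSO, full bars MBZ, pink is MDA-MB-231 and blue SUM159, and black lines are 95% Clopper-Pearson intervals. The share of PSMB9 is 67% with DMSO and 46.3% with MBZ in SUM159, and 9.83% and 13% in MDA-MB-231.

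Genes of interferon signaling and antigen presentation, listed for comparison, were mostly lower with MBZ in SUM159 too after TMM scaling. Of 12 such genes, 10 had a counting interval below 0 there (37% of all genes), 1 had one above 0 (IRF1) and 1 had one that held 0 (TAP2, at 0.07). At 1.5-fold, 5 were at least 1.5-fold lower with MBZ in SUM159 and 0 were higher (21.7% and 21.5% of all genes), with a median of −0.43. Among them were the antigen-presenting heavy chains HLA-B (−1.67) and HLA-C (−1.32), their light chain B2M (−0.97), and TAPBP (−0.84), which loads peptides. HLA-B and HLA-C share stretches of sequence, so their reads may be split or left out. In MDA-MB-231, 1 of 12 was at least 1.5-fold higher, ERAP1 (0.67), which trims peptides, and 0 were lower (18.3% and 15.8% of all genes), with a median of 0.12. TAP1, a peptide transporter whose annotated start lies 488 bases from that of PSMB9, had log2 fold changes of −0.29 in SUM159 (−0.35 to −0.22) and 0.29 in MDA-MB-231 (0.17 to 0.41), beside −0.32 and 0.37 for PSMB9. In SUM159, TAP1 had 3235 reads with DMSO and 3306 with MBZ, from total counts of 18708179 and 18904501. Its direction there therefore depends on the scaling. IRF1, a transcription factor of the interferon response, had 0.25 (0.13 to 0.37) in SUM159.

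All 17 subunits of the 19S particle taken by the symbol rule were higher with MBZ in SUM159 by the counting interval (31.5% of all genes). Their median was 0.47 and their range 0.17 to 0.91. SEM1 and ADRM1, which belong to the particle but not to the rule, are given further below, and the interval of SEM1 held 0 in SUM159. In MDA-MB-231, 5 were higher (30.5% of all genes), 9 lower (35.3%) and 3 had an interval that held 0, with a median of −0.07. Of genes that averaged 500 counts or more, 3837 of 7129 were lower there. Among the 6 ATPases, which unfold the substrate, PSMC4 (chr19:39971165-39981764) was at 169.3, 161.0, 89.8 and 148.6 CPM. It was 1.65-fold higher in SUM159 (log2 0.73, 0.64 to 0.82) and 0.95-fold in MDA-MB-231 (log2 −0.07, −0.14 to −0.004). PSMC3 was at 314.5, 220.1, 92.7 and 135.6 CPM, the lowest of the 31 subunits by fold change in MDA-MB-231, at −0.52 (−0.57 to −0.46), and at 0.55 in SUM159 (0.46 to 0.64). PSMC2 had the highest fold change of the ATPases in MDA-MB-231, with levels of 132.6, 174.8, 63.2 and 78.3 CPM, with 0.40 (0.33 to 0.47), and its 0.31 in SUM159 (0.20 to 0.42) was on the same side. PSMC1 had the lowest fold change of the ATPases in SUM159, with 0.22 (0.08 to 0.36), and was at 92.0, 83.7, 41.3 and 48.1 CPM. PSMC5 had 0.47 in SUM159 (0.38 to 0.57) and 0.03 in MDA-MB-231 (−0.04 to 0.10), and PSMC6 had 0.47 (0.31 to 0.62) and 0.34 (0.23 to 0.44).

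PSMD2, which with PSMD1 forms the scaffold of the base, was the most read member. It was at 790.5, 624.0, 275.6 and 475.2 CPM from 17948, 11729, 4645 and 9972 counts, and its log2 fold change was 0.79 in SUM159 (0.74 to 0.84) and −0.34 in MDA-MB-231 (−0.38 to −0.31). PSMD1 was at 175.4, 130.5, 89.2 and 107.2 CPM, with 0.27 (0.17 to 0.36) and −0.43 (−0.50 to −0.35). Both were lower with MBZ in MDA-MB-231 and higher in SUM159. PSMD4, a ubiquitin receptor, was at 173.9, 179.9, 151.8 and 174.8 CPM, with 0.20 in SUM159 (0.13 to 0.28) and 0.05 in MDA-MB-231 (−0.02 to 0.12).

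PSMD14, the metalloprotease of the lid that cuts ubiquitin chains from the substrate, was the highest lid subunit by fold change in both lines. The gene lies at chr2:161308425-161411717 and was at 65.8, 81.5, 37.7 and 70.9 CPM. It was 1.88-fold higher in SUM159 (log2 0.91, 0.78 to 1.05) and 1.24-fold higher in MDA-MB-231 (log2 0.31, 0.20 to 0.41). PSMD3 had the lowest fold change of the lid in MDA-MB-231, with levels of 278.3, 220.2, 185.4 and 241.4 CPM, with −0.34 (−0.40 to −0.28) there and 0.38 (0.32 to 0.45) in SUM159. PSMD6 had the lowest in SUM159, with levels of 90.4, 109.9, 57.0 and 64.0 CPM, with 0.17 (0.05 to 0.29) there and 0.28 (0.19 to 0.37) in MDA-MB-231. PSMD12, whose promoter window holds the element letters printed above, had 0.56 in SUM159 (0.45 to 0.67) and 0.24 in MDA-MB-231 (0.15 to 0.33). Lid subunits PSMD8, PSMD11, PSMD13 and PSMD7 lay between 0.29 (PSMD13) and 0.51 (PSMD11) in SUM159 and between −0.30 (PSMD8) and −0.03 (PSMD13) in MDA-MB-231. PSMD7 shares 51.6% of its canonical transcript and PSMC5 13.7% with antisense genes.

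The activators and regulators bind the ends of the 20S particle and did not share a direction. PSME1 and PSME2, which together form the PA28 activator, moved apart in both lines. PSME1 (chr14:24136163-24138967) was at 228.8, 169.6, 225.9 and 164.0 CPM, lower with MBZ at −0.43 in MDA-MB-231 (−0.50 to −0.37) and −0.46 in SUM159 (−0.53 to −0.40). PSME2 (chr14:24143362-24147570) was at 124.9, 137.9, 85.7 and 114.1 CPM, with 0.14 (0.07 to 0.22) and 0.41 (0.32 to 0.51). The ratio of PSME1 to PSME2 reads in MDA-MB-231 was 1.83 with DMSO and 1.23 under MBZ, and in SUM159 2.64 and 1.44, log2 changes of −0.57 (−0.68 to −0.47) and −0.88 (−0.99 to −0.76). PSME3, the nuclear activator PA28 gamma, was at 290.1, 207.6, 118.3 and 137.4 CPM, with −0.48 in MDA-MB-231 (−0.54 to −0.43) and 0.22 in SUM159 (0.13 to 0.30). PSME4, which encodes PA200, was higher in both lines, by 0.37 (0.27 to 0.47) and 0.45 (0.34 to 0.57), at 69.5, 89.7, 57.7 and 79.1 CPM. PSMF1, the regulator PI31, was lower in both, with −0.40 (−0.48 to −0.33) and −0.19 (−0.26 to −0.12), and with total counts as the scale at −0.14 and 0.11.

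Assembly factors split in SUM159. In MDA-MB-231, 6 of 7 had an interval that held 0 after TMM scaling (34.2% of all genes), and with total counts as the scale 2 did and 5 lay above 0, with a median of 0.28. PSMG1 to PSMG4 encode the chaperones that build the alpha ring in pairs, PSMG1 with PSMG2 and PSMG3 with PSMG4. PSMG3 was at 40.0, 41.4, 35.0 and 57.1 CPM, 1.63-fold higher in SUM159 (log2 0.71, 0.56 to 0.85) with 0.05 in MDA-MB-231 (−0.09 to 0.19). Its partner PSMG4 was at 12.1, 13.7, 18.2 and 31.1 CPM, 1.71-fold higher in SUM159 (log2 0.78, 0.58 to 0.98) with 0.18 in MDA-MB-231 (−0.07 to 0.43). PSMG2 was at 48.2, 45.4, 60.3 and 41.4 CPM and had the lowest fold change of the members in SUM159, at −0.54 (−0.68 to −0.41), with −0.09 in MDA-MB-231 (−0.22 to 0.04). Its partner PSMG1 had 0.30 in SUM159 (0.15 to 0.45) and −0.15 in MDA-MB-231 (−0.33 to 0.03). Members of the first pair thus lay on opposite sides of 0 in SUM159, and those of the second pair on the same side. The chaperones of the 19S base also differed. PSMD5 was at −0.47 in SUM159 (−0.59 to −0.35) and 0.02 in MDA-MB-231 (−0.08 to 0.12), PSMD10 at 0.31 (0.14 to 0.48) and 0.01 (−0.09 to 0.11), and PSMD9, with 358, 236, 213 and 287 counts, at 0.11 (−0.15 to 0.38) and −0.33 (−0.57 to −0.09).

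PSMC3IP had the largest fold change of the 49 genes taken by the rule. It had 264, 171, 65 and 194 counts, 2.39-fold higher with MBZ in SUM159 (log2 1.26, 0.85 to 1.69) and 0.78-fold in MDA-MB-231 (log2 −0.35, −0.64 to −0.07). Like the median of the G2 and mitosis genes, its level was lowest in SUM159 with DMSO (3.86 CPM) and highest in MDA-MB-231 with DMSO (11.6 CPM). This was not particular to PSMC3IP, since PSMD2, PSMC3 and PSMB6, among others, had the same lowest and highest library. PSMA5 and PSMD14 were instead highest in MDA-MB-231 with MBZ. The part of the G2 and mitosis genes in this was not tested. The gene shares 57.2% of its canonical transcript with the antisense gene MLX.

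The difference in response between the lines had no test. The log2 fold change was higher in SUM159 than in MDA-MB-231 with a counting interval above 0 for 35 of 47 members (31.3% of all genes), and lower with an interval below 0 for 5 (33.7%), which were PSMA1, PSMB9, PSMB10, PSMD5 and PSMG2. For 21 of 47 members the fold changes of the lines lay at least 1.5-fold apart, beside 45.5% of all genes, a share near that of the members. The largest differences among proteasome subunits were those of PSMD2 (1.13, 1.07 to 1.19), PSMC3 (1.06, 0.96 to 1.17), PSMA2 (1.06, 0.18 to 1.96, on few reads) and PSMB6 (1.00, 0.86 to 1.15). By the counting interval 10 members were higher in both lines (12.3% of all genes compared in both), 4 were lower in both (18.3%) and 17 went in opposite directions (20%). With total counts as the scale, 8 of these 17 lay above 0 in both lines, 9 stayed on opposite sides of 0, and 6 did so with both intervals clear of 0. The 10 higher in both lines were PSMA3, PSMA4, PSMA5, PSMC2, PSMC6, PSMD6, PSMD12, PSMD14, PSME2 and PSME4, and the 4 were PSMB5, PSMB8, PSME1 and PSMF1, of which only PSME1 stayed below 0 in both lines (−0.17 and −0.16) with total counts as the scale. At 1.5-fold, 0 members were higher in both (6.12% of all genes), 0 lower in both (4.71%) and 0 opposite (6.04%).

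**Figure D4:**
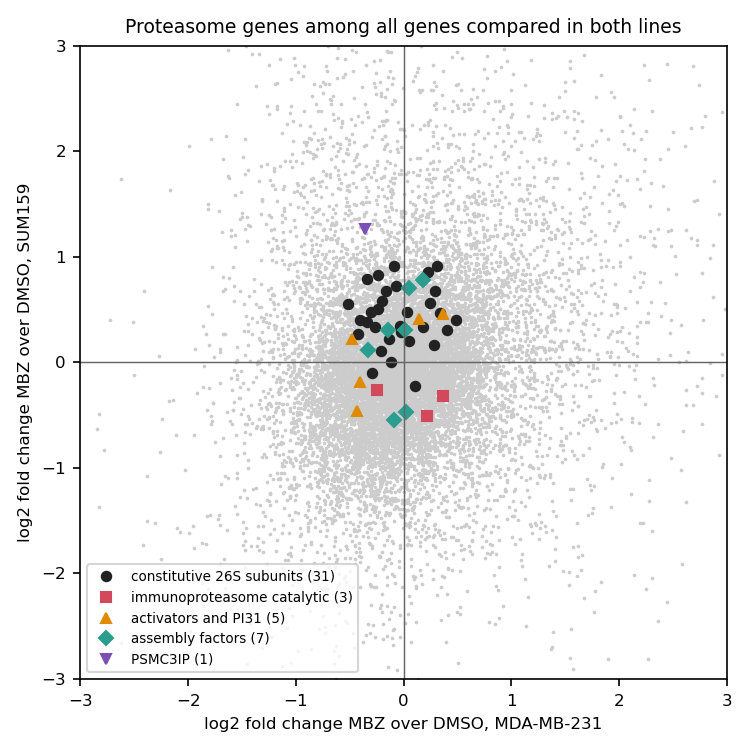
Log2 fold change of MBZ over DMSO in SUM159 (vertical) against MDA-MB-231 (horizontal) for 13733 genes compared in both lines (grey) and for the 47 members, marked by group; 281 genes lie outside the axes. The constitutive 26S subunits (black) lie between −0.52 and 0.48 on the horizontal axis and mostly above 0 on the vertical one, and the 3 immunoproteasome subunits (red) lie below 0 on it.

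A change shared by both lines was tested with edgeR's quasi-likelihood test on all 4 libraries, with the lines in place of replicates. Of 47 members tested, 0 had an adjusted p under 0.05, where 0.00621% of 16100 genes were called higher and 0% lower, and 0 had an unadjusted p under 0.05, where 7.14% of all genes did. DESeq2 called 0 of 47 members, with 0 at an unadjusted p under 0.05, and 99 genes in all. PSMD14 came closest, with a shared log2 fold change of 0.65 and a Benjamini-Hochberg adjusted p of 0.704 in edgeR. Over the other members the adjusted p from edgeR reached up to 0.995.

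The lines also differed in their starting levels. In DMSO the 31 constitutive subunits were lower in SUM159 than in MDA-MB-231, with a median log2 difference of −0.66, a range of −1.86 (PSMB6) to 0.23 (PSMB1), 28 intervals below 0 (41.4% of all genes) and 1 above (39.9%). With MBZ the median difference was −0.23. Of the 31, 18 were at least 1.5-fold lower in SUM159 with DMSO (30.6% of all genes) and 9 with MBZ (28.9%). Over the 47 members, 21 were at least 1.5-fold lower in SUM159 with DMSO (30.6% of all genes) and 4 at least 1.5-fold higher (31% of all genes), namely PSMG4 and the immunoproteasome subunits PSMB8 (1.46), PSMB9 (2.36) and PSMB10 (1.68). The median of the 3 immunoproteasome subunits was 1.68 with DMSO and 1.43 with MBZ. The comparison in DMSO and that of MBZ within SUM159 share the SUM159 DMSO library, which was the lowest for the constitutive subunits and stood apart in the G2 and mitosis genes. Culture, growth state and line cannot be told apart with 1 library each.

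Among 28 other genes of the proteasome pathway, which were listed for their known roles, 2 were at least 1.5-fold higher and 2 lower in MDA-MB-231 (18.3% and 15.8% of all genes), and 3 were higher and 1 lower in SUM159 (21.5% and 21.7%). Their medians were −0.01 and −0.06. POMP, which matures the 20S particle, was higher in SUM159 by 0.65 (0.54 to 0.76), and ADRM1, a ubiquitin receptor of the 19S particle, by 0.62 (0.52 to 0.73), with 0.05 and −0.26 in MDA-MB-231. SEM1, a small subunit of the lid, had 0.06 in SUM159 (−0.06 to 0.19) and −0.31 in MDA-MB-231 (−0.42 to −0.19). ECPAS, an adaptor that holds the 26S particle together, was lower in SUM159, at −0.79 (−0.86 to −0.73). ZFAND2A, a stress-induced protein that binds the proteasome, was the only one at least 1.5-fold higher in both lines, by 1.24 in MDA-MB-231 (1.06 to 1.42) and 0.76 in SUM159 (0.56 to 0.95).

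After TMM scaling, the genes that act on NFE2L1 did not share a direction. NFE2L1 itself had 0.33 in MDA-MB-231 (0.28 to 0.38) and −0.16 in SUM159 (−0.21 to −0.11). DDI2, the protease that activates it, had 0.67 (0.49 to 0.85) and 0.001 (−0.16 to 0.16), and NGLY1, which deglycosylates it, had 0.45 (0.27 to 0.64) and −0.11 (−0.29 to 0.07). VCP, the ATPase that extracts NFE2L1 from the endoplasmic reticulum, had −0.36 (−0.40 to −0.33) and 0.06 (0.01 to 0.10). With DMSO and with MBZ in SUM159, NFE2L1 had 6874 and 7670 reads, DDI2 561 and 699, NGLY1 471 and 543, and VCP 7351 and 9517. Total counts were 18708179 and 18904501, so each took a higher share of total counts with MBZ in SUM159. These genes were named after their values were seen. The levels of these RNAs do not measure the activity of the protein. The shuttle factors UBQLN4 (−0.76, −0.85 to −0.66) and UBQLN2 (−0.67, −0.85 to −0.48) were the 2 lower genes in MDA-MB-231, with −0.06 (−0.17 to 0.05) and −0.46 (−0.58 to −0.33) in SUM159. Among the ubiquitin genes, UBB was higher in both lines, by 0.42 (0.38 to 0.47) and 0.55 (0.46 to 0.63), while RPS27A had −0.55 (−0.59 to −0.51) in SUM159.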

How the data were processed

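RNA from MDA-MB-231 and SUM159 cells, 1 library for each of the 4 conditions, was sequenced in paired-end runs at a service laboratory. The authors aligned the reads to GRCh38 with STAR v2.5, used HTSeq v0.6.1 with the union setting for counting, and deposited unnormalized whole-number counts per gene. The submitters' processing notes also name edgeR v3.16.5. The annotation release and strand setting are not given in the sources used here. Of 58735 identifiers, 58207 were found in the reference name table, and positions and overlaps are those of GENCODE 44. Promoter windows come from RefSeq (GRCh38.p14).

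Fold changes were differences of log2 CPM in edgeR 4.0.16 (R 4.3.3), with TMM factors from the pair of libraries and a prior count of 0.125. Genes needed a mean of at least 10 counts over those 2 libraries, and a gene was called at a fold change of 1.5. Intervals at 95% follow Clopper and Pearson, applied to how a gene's reads divide between MBZ and DMSO, and are exact conditional ones for differences between fold changes and for ratios of 2 genes. They cover counting error only, since each condition has 1 library. PCR copies were not marked by molecular identifiers, so even that error may be understated. Levels per length used TMM over the 4 libraries and the canonical transcript.

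The shared change was tested with edgeR's quasi-likelihood test (cell line and treatment, filterByExpr, Benjamini-Hochberg adjustment over 16100 genes), whose spread is how unlike the lines respond (common BCV 0.323). DESeq2 1.42.0 was an alternative, as were other scalings, count filters, prior counts and thresholds. The scripts were tested on simulated counts. The members and lists were chosen with earlier results of these data known. Full values were given for members called at 1.5-fold, the 6 catalytic subunits, and the highest and lowest member of each group in each line. The values of some listed genes are not reported here.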

Additional observations from a re-analysis of the deposited data

Results flagged for a closer look

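For 17 members the log2 fold change of MBZ over DMSO lay on opposite sides of 0 in the lines, each with a counting interval that excluded 0 after TMM scaling, beside 20% of all genes compared in both lines. With total counts as the scale 9 of the 17 lay on opposite sides of 0, 6 of them by both intervals, and 8 lay above 0 in both lines. The difference was not tested, since each line has 1 library per condition. SUM159 minus MDA-MB-231, it was 1.614 for PSMC3IP (1.11 to 2.13). Among the subunits of the 19S particle it was 1.127 for PSMD2, 1.063 for PSMC3, 0.799 for PSMC4, 0.776 for PSMD8, 0.738 for PSMD11, 0.719 for PSMD3, 0.691 for PSMD1, 0.596 for PSMD7 and 0.355 for PSMC1. Among those of the 20S particle it was 1.002 for PSMB6, 0.839 for PSMA7, 0.804 for PSMB3, 0.781 for PSMB2 and 0.323 for PSMB1. The activator PSME3 had 0.699. PSMB9 was the only one with a negative difference, −0.686 (−0.91 to −0.46). The SUM159 DMSO library enters each of these values, and its level of G2 and mitosis genes (median 17.3 CPM) was the lowest of the 4 libraries. Under total-count scaling the all-gene median was 0.247 in MDA-MB-231, where 35 of 47 members in place of 20 lay above 0.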

How the results depend on the processing

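Of the values that answer a comparison, 87 stayed within 1.5 times the count, within the counting interval of the median or difference, or within the interval of the share, and 37 moved out of it, and the median of the 31 subunits in MDA-MB-231 turned its sign under total-count scaling. Total-count scaling gave 5 members higher in MDA-MB-231, 30 in SUM159 and 4 in both, and pathway genes of 7 higher and 0 lower in MDA-MB-231 and 6 higher and 0 lower in SUM159. It moved the median of the 31 subunits to 0.177 in MDA-MB-231 and 0.704 in SUM159, with all genes. DESeq2 size factors gave 4 pathway genes lower in MDA-MB-231. With every gene of at least 1 count, 1 member was higher in MDA-MB-231, 2 were lower in SUM159 and 1 was opposite, all of them PSMA8 or PSMB11 at 0 to 2 counts. At 2-fold, 1 member was higher in SUM159 (PSMC3IP), and the pathway had 1 gene higher and 0 lower in MDA-MB-231 and 0 and 0 in SUM159. Calls by the counting interval gave 11 members higher and 22 lower in MDA-MB-231, 36 and 8 in SUM159, 10 higher and 4 lower in both, 17 opposite, and pathway genes of 12 and 9 in MDA-MB-231 and 10 and 12 in SUM159. The immunoproteasome share without division by length was 12.3%, 13.3%, 41% and 31.6% in MDA-MB-231 DMSO, MDA-MB-231 MBZ, SUM159 DMSO and SUM159 MBZ. Without PSMB10 and PSMB7, it was 13.5%, 14.7%, 52.2% and 42.9%; this alternative and that without the 5 genes that overlap a readthrough gene were chosen after seeing the data. The shared test called 0 members with RLE scaling, with every gene of at least 1 count and without the cell line as well, with smallest adjusted p-values from edgeR of 0.675, 0.922 and 1. No paired analysis was possible because each condition has 1 library, other than that by cell line, which the shared test holds as a term, and no replicate could be left out.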
